A study of Mus musculus with 40 samples.

Results

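The genes described here are the replication-dependent histone genes of cluster 1 on mouse chromosome 13. They were taken as the protein-coding genes whose symbols begin with Hist1h in GENCODE mouse release 21 (build mm10), which gave 54 of 21827 protein-coding genes. H3K27ac marks active promoters and enhancers, and H3K4me1 marks enhancers and the flanks of promoters. Both had been mapped by ChIPmentation (immunoprecipitation of chromatin with adapters added by the Tn5 transposase) in haematopoietic stem and progenitor cells sorted from mice 21 days old. Besides wild type, 5 mutant genotypes were used. The single mutants were Flt3-ITD, with an internal tandem duplication in the receptor kinase gene Flt3, NUP98-HOXD13, with a fusion of nucleoporin and homeobox genes, and Runx1-het, whose source names join Runxf and Vav. Flt3-ITD was combined with each of the others, giving Flt3-ITD/NUP98-HOXD13, called the fusion double mutant below, and Flt3-ITD/Runx1-het, called the Runx1 double mutant. The sources used here do not give the exact Runx1 alleles, the promoter that drives the fusion or the number of Flt3-ITD copies. Of 12 groups (39 samples) defined by genotype and mark, 9 had 3 samples and 3 had 4 (the H3K27ac group of NUP98-HOXD13 and both groups of the fusion double mutant). Each group had 1 pooled peak list and no value per animal, so the spread between animals is unknown, and no difference between genotypes was tested.

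Histone genes of this kind are transcribed mainly in S phase, when newly copied DNA has to be packed into nucleosomes. Their mRNAs end in a stem-loop in place of a poly(A) tail, and their transcription is driven at the histone locus body, a nuclear body organised by the coactivator NPAT. H2A, H2B, H3 and H4 form the nucleosome core, and H1 binds the linker DNA. In blood progenitors these genes are active wherever cells divide.

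The 54 genes were 6 H1, 13 H2A, 15 H2B, 9 H3 and 11 H4 genes. They lay in 4 blocks separated by gaps of over 100 kb. Block 1 held 18 genes (chr13:21715763-21837530), block 2 held 5 (chr13:22035164-22043676), block 3 held 29 (chr13:23531050-23764406), and block 4 held only the pair Hist1h2ba and Hist1h2aa (chr13:23933773-23934851). There were 11 pairs in which an H2A and an H2B gene were transcribed away from each other from starts 176 to 306 bp apart, and these pairs took in 22 of the 54 genes.

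RefSeq promoter sequences (build GRCm38.p6, 250 bases before to 50 after each start) were matched to 51 of the 54 genes. The 4 promoters shown first are the ones the H3K27ac values below turn on: Hist1h4h, which had the strongest peak of the cluster in every list, Hist1h3e, the strongest H3 gene by median, and Hist1h2ah with Hist1h2bk, the divergent pair missing from the wild-type list. Each sequence is the 150 bases before the RefSeq start, read 5′ to 3′ on the gene's own strand. Capitals mark the CCAAT box (CCAAT, bound by NF-Y), the TATA box (TATAAA), the octamer (ATTTGCAT, bound by OCT1 at H2B promoters) and the AC box of H1 promoters (AAACACA), each searched on both strands, so that ATTGG is a CCAAT box on the other strand. None of these 4 strings contains another. Hist1h4h lies at chr13:23530894-23531043 (plus strand), Hist1h3e at chr13:23562386-23562535 (minus strand), Hist1h2ah at chr13:22035644-22035793 (minus strand) and Hist1h2bk at chr13:22035671-22035820 (plus strand). The Hist1h2ah and Hist1h2bk stretches overlap on opposite strands.
Hist1h4h: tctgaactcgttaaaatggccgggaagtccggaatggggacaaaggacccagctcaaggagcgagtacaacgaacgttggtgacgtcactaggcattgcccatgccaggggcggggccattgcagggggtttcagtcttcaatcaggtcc
Hist1h3e: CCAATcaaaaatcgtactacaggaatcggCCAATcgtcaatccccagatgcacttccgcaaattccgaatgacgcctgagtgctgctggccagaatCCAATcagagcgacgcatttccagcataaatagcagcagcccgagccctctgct
Hist1h2ah: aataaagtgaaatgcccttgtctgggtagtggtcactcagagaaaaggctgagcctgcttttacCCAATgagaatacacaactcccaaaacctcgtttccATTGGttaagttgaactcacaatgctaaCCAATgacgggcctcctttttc
Hist1h2bk: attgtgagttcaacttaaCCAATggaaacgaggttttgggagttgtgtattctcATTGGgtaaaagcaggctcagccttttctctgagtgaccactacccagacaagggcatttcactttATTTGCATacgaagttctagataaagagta

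The H1 gene Hist1h1b (chr13:21780626-21780775 (minus strand)) is shown because its 150 bases hold the AC box, the CCAAT box and the TATA box together. Hist1h4m (chr13:21811596-21811745 (plus strand)) and Hist1h4n (chr13:21832198-21832347 (minus strand)) are shown because they lie in the stretch without any H3K27ac peak and are near-copies of each other: of 299 aligned promoter bases, 298 were identical. Hist1h4b (chr13:23756787-23756936 (plus strand)) is the gene missing from the NUP98-HOXD13 list, and these 150 bases held none of the 4 strings.
Hist1h1b: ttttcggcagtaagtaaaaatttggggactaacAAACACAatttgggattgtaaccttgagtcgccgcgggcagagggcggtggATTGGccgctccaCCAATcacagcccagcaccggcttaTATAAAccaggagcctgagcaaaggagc
Hist1h4m: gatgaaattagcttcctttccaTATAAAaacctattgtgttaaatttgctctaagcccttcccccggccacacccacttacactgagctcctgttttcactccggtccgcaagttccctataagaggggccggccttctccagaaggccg
Hist1h4n: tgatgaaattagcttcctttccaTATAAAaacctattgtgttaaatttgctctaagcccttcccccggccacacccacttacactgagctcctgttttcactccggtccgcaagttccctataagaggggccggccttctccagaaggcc
Hist1h4b: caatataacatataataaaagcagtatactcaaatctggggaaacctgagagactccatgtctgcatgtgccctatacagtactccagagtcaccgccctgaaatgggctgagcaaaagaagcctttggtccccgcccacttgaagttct

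Over the whole 300-base windows, the classes differed in the strings they held. The CCAAT box was in 43 of 51 windows (84.3%, against 38.2% of 21262 RefSeq protein-coding promoters): in all 6 H1, 13 H2A, 14 H2B and 7 H3 windows, but in 3 of 11 H4 windows. The TATA box was in 31 of 51 (60.8% against 12.6%), with 8 of the 11 H4 windows among them. The octamer was in 10 of 51 (19.6% against 1.66%), 5 H2A and 5 H2B windows and no window of another class. The AC box was in 9 of 51 (17.6% against 6.15%), including 5 of the 6 H1 windows. The median GC content of the windows was 45.3%, against 56.3% over all promoters. The windows of a divergent H2A and H2B pair overlap and both strands were searched, so the same site can count in both windows. These are therefore counts of windows, and distinct sites were not counted. A string of letters in a window is not a bound site.

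H3K27ac marked most of the cluster in every genotype. A gene was counted as carrying a promoter peak where any peak of the list lay within 1 kb of a start site. Such peaks stood at 42 of the 54 genes in wild type (77.8%, against 39.4% of all protein-coding genes) and at 44 in Flt3-ITD (81.5% against 43%). They stood at 43 with NUP98-HOXD13 (79.6% against 45.2%) and 44 in Runx1-het (81.5% against 39.4%). In the double mutants they stood at 44 each (81.5%, against 45.5% in the fusion double mutant and 46.2% in the Runx1 double mutant). Of the 54, 41 (75.9%) were in all 6 lists, 3 were in 5 lists and 10 (18.5%) were in none, while over all genes 35.2% were in all 6 lists and 50.5% in none. All 9 H3 genes were in every list, as were 4 of 6 H1, 9 of 13 H2A, 11 of 15 H2B and 8 of 11 H4 genes. The 11 divergent H2A and H2B pairs behaved as units: in each pair both genes were held by the same number of lists, 7 pairs by all lists, 1 pair by 5 and 3 pairs by none. Starts so close lie in each other's promoter range, so this follows in part from the 1 kb rule.

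**Figure D1:**
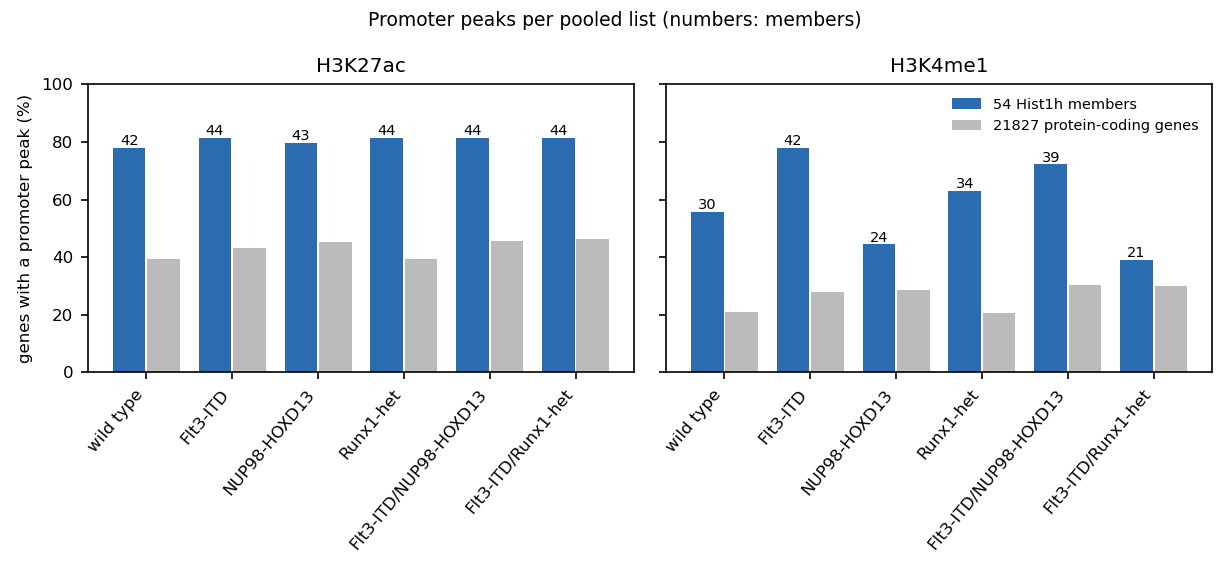
Share of genes (%, vertical axis) with a promoter peak in each pooled list, for H3K27ac (left) and H3K4me1 (right); blue bars are the 54 Hist1h genes, with their number on top, and grey bars all 21827 protein-coding genes. The H3K27ac bars of the cluster lie between 77.8 and 81.5%, and the H3K4me1 bars between 38.9 and 77.8%.

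The peaks were strong ones within their lists. The quantity given is the fold enrichment over control that the authors deposited for the summit, which ranks peaks within a list and is not compared between lists. The strongest promoter peak of each marked gene had a median fold enrichment of 12.2 in wild type, where all genes with a promoter peak had a median of 7.64. The same 2 medians were 18.1 and 9.54 in Flt3-ITD, 14 and 8.8 with NUP98-HOXD13, and 14.3 and 9.08 in Runx1-het. They were 18.9 and 10.7 in the fusion double mutant, and 13.1 and 9.76 in the Runx1 double mutant. By rank among all marked genes the cluster's median percentile was lowest in the Runx1 double mutant (66.6) and highest in Flt3-ITD (79.9). Neighbouring genes often shared a peak: each list had 47 to 60 H3K27ac peaks at the cluster, of which 21 to 25 lay within 1 kb of 2 genes and 4 or 5 within 1 kb of 3 or more. The 42 to 44 marked genes thus rested on 26 to 30 distinct strongest peaks.

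**Figure D2:**
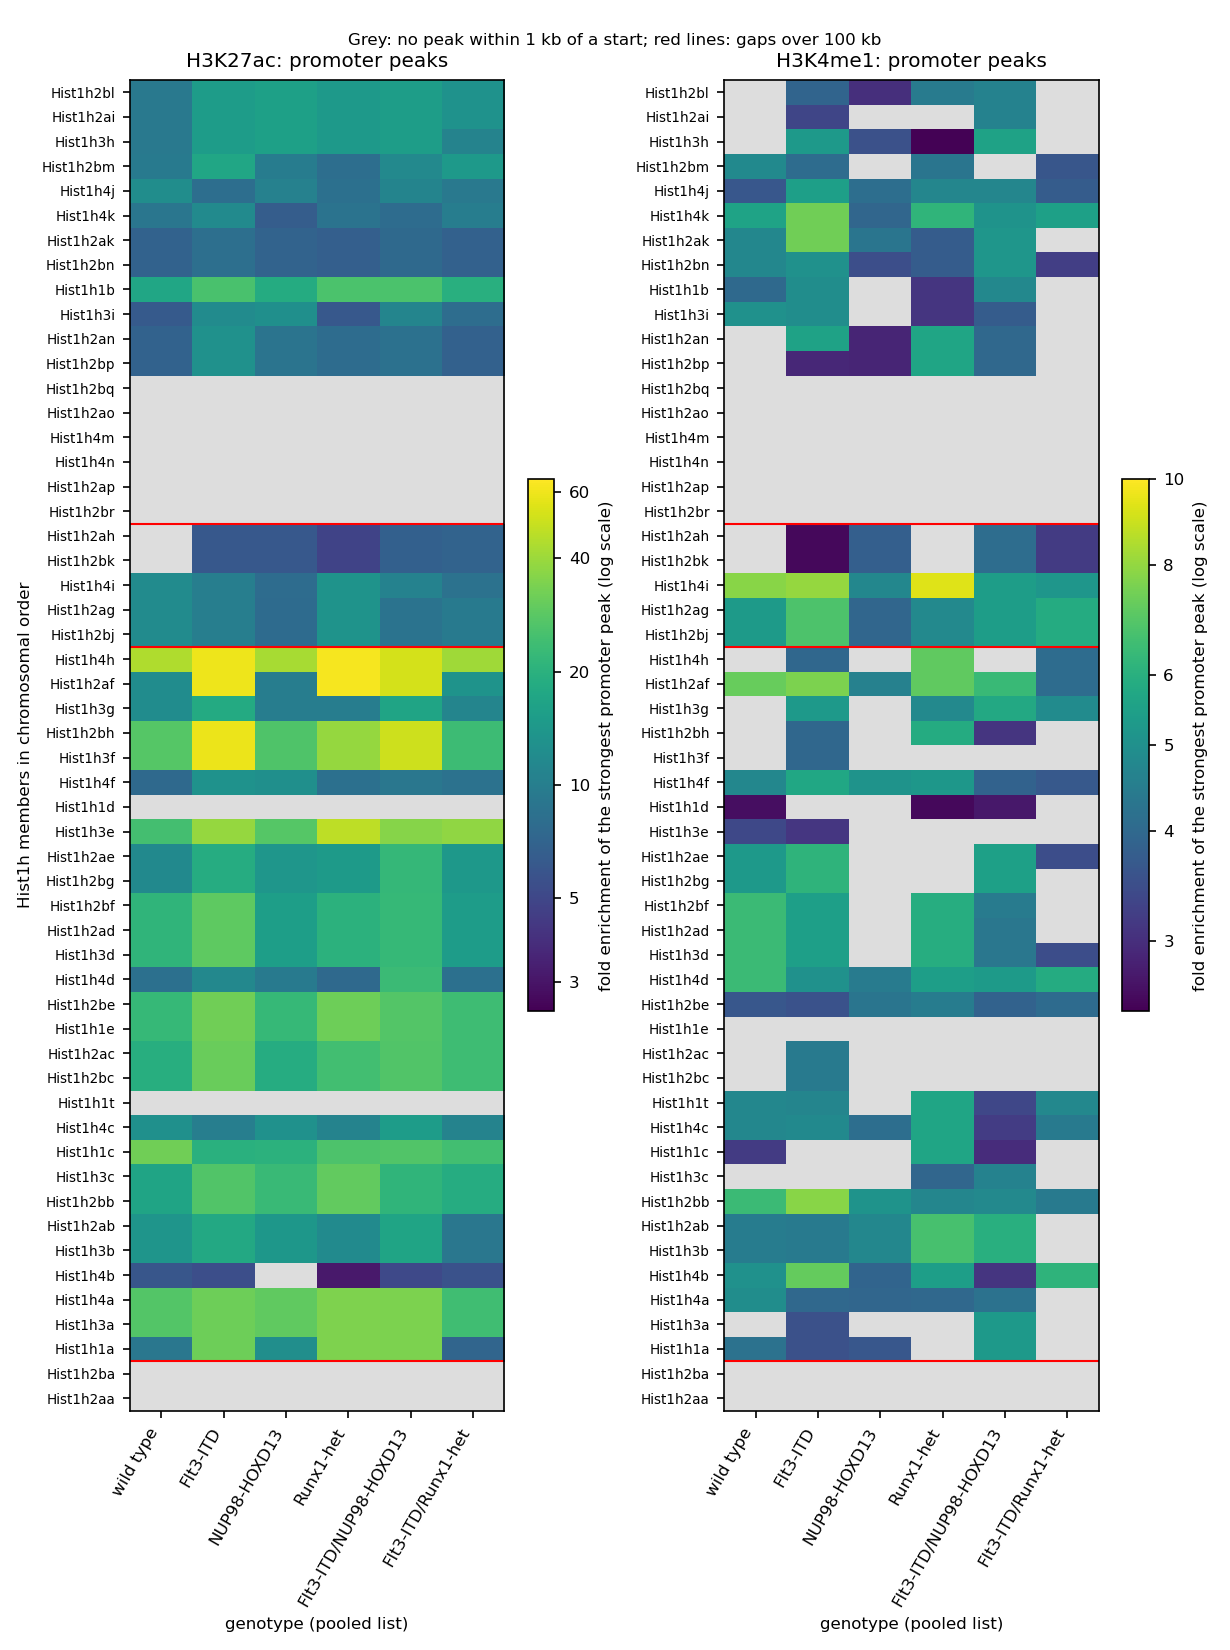
Fold enrichment of the strongest promoter peak (colour, log scale; the authors' value) for the 54 Hist1h genes in chromosomal order (vertical axis) in the 6 pooled lists of H3K27ac (left) and H3K4me1 (right). Grey cells have no peak within 1 kb of a start, and red lines mark gaps of over 100 kb; the H3K27ac panel has the same 10 grey genes in every list, while the H3K4me1 panel has the most grey cells in NUP98-HOXD13 and Flt3-ITD/Runx1-het.

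Among the H4 genes, Hist1h4h had a fold enrichment of 44.2 in wild type, 59.7 in Flt3-ITD, 42.5 with NUP98-HOXD13, 62.3 in Runx1-het, 52.8 in the fusion double mutant and 40.8 in the Runx1 double mutant. These peaks were at the 99.1st percentile or above of all marked genes in every list, and none at another Hist1h gene exceeded them. Hist1h4a, at the far end of block 3, followed with 27.1, 31.6, 29.2, 34.6, 34.1 and 23.9 in the same order of genotypes. It shared its peak with the H3 gene Hist1h3a. The other H4 genes were weaker, and the median over the 8 H4 genes held by every list, each taken at its median over the lists, was 10.1.

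Among the H3 genes, Hist1h3e had 24.6 in wild type, 38.6 in Flt3-ITD, 27.7 with NUP98-HOXD13, 47.2 in Runx1-het, 35.8 in the fusion double mutant and 37.8 in the Runx1 double mutant. Hist1h3f shared its peak with the H2B gene Hist1h2bh, with 27.7, 59.4, 26.6, 38.6, 50.5 and 23.3 in that order. This shared peak ranked between the 90.3rd and the 99.7th percentile of its lists. The median over all 9 H3 genes was 20.7.

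Among the linker histone genes, Hist1h1e, which encodes a main somatic H1 subtype, had 22.1 in wild type, 31.9 in Flt3-ITD, 22.2 with NUP98-HOXD13, 31.5 in Runx1-het, 27.3 in the fusion double mutant and 23.5 in the Runx1 double mutant. The summit of that peak lay 1505 to 1607 bp downstream of the Hist1h1e start and 41 to 143 bp downstream of a start of the H2B gene Hist1h2be, which therefore carries the same values. Hist1h1c had 32, 19.7, 20.2, 26.2, 26.9 and 24.2 in the same order. Its summit lay 1405 to 1517 bp downstream of the start in wild type, NUP98-HOXD13 and the fusion double mutant. In Flt3-ITD and Runx1-het the summit stood at -369 and -374 bp, so these values come from different sites. Hist1h1a had 31.6 in Flt3-ITD, 34.6 in Runx1-het and 34.1 in the fusion double mutant, from a peak with its summit at -1905 to -1832 bp, nearest to Hist1h4a or Hist1h3a. It had 7.24 to 12.5 in the other 3 lists, with the summit at -1152 to -1062 bp, nearest to Hist1h3a. The median over the 4 H1 genes in every list was 23.9, values borrowed in this way included.

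Among the H2A genes, Hist1h2ac had 19.2 in wild type, 31 in Flt3-ITD, 18.7 with NUP98-HOXD13, 24.3 in Runx1-het, 26.7 in the fusion double mutant and 23.7 in the Runx1 double mutant. In these lists up to the fusion double mutant, the summit lay at -1062 to -931 bp, nearest to the H2B gene Hist1h2bc. Hist1h2bc carried the same values there. Hist1h2af, the neighbour of Hist1h4h, had 12.2 in wild type, 9.98 with NUP98-HOXD13 and 13.3 in the Runx1 double mutant. The first 2 of these peaks had their summits 770 and 901 bp downstream of its start, nearest to the start of the H3 gene Hist1h3g, and the third had its summit at -2351 bp, nearest to Hist1h4h. In the other 3 lists its value was that of Hist1h4h, because 1 peak reached from that gene into its promoter range, with the summit at -3156 to -3099 bp from its own start. In none of the 6 lists was the start of Hist1h2af the one nearest to the summit of the peak that gave its value. Over the H2A and H2B genes in every list, the medians were 14.4 (9 genes) and 14.8 (11 genes).

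The order of the genes was alike in all lists. Across the 41 genes held by every list, Spearman's rho between the fold enrichments of 2 lists ranged from 0.744 (wild type and Flt3-ITD) to 0.922 (Flt3-ITD and the fusion double mutant), given as a description, since genes under 1 peak share a value. The summits lay away from the starts: the median distance from a promoter peak's summit to the nearest start was 537 to 582 bp at the cluster, against 275 to 394 bp over all promoter peaks. Only 25.5 to 31.7% of the cluster's H3K27ac promoter peaks had a summit within 300 bp of a start, against 39 to 53.6% over all genes.

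**Figure D3:**
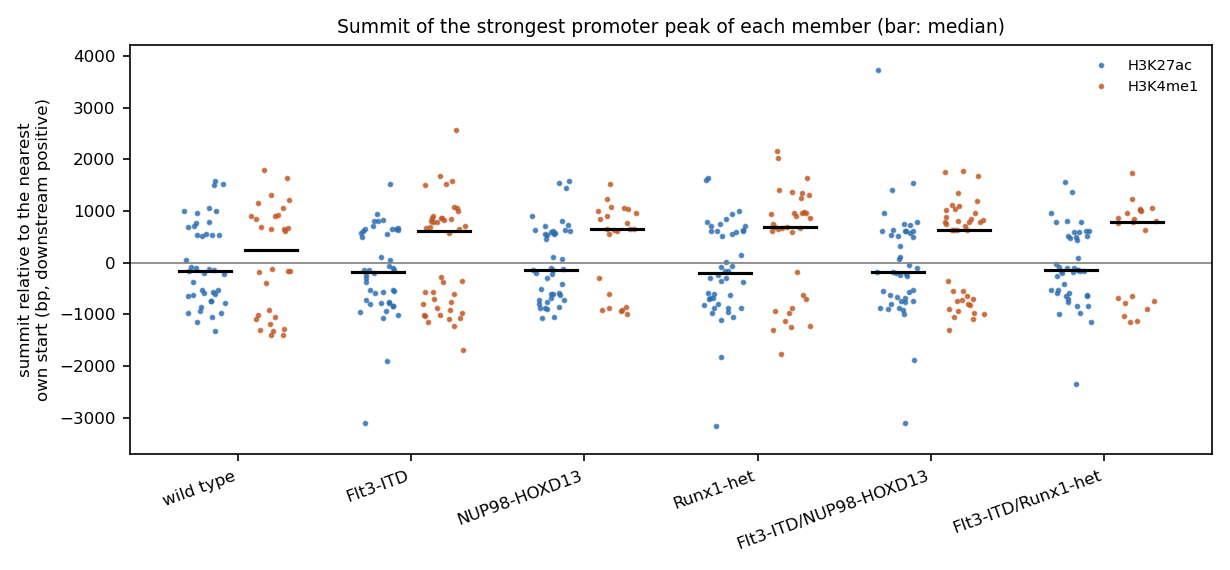
Position of the summit of the strongest promoter peak relative to the gene's own nearest start (bp, downstream positive) for each marked Hist1h gene in the 6 pooled lists; blue points are H3K27ac, orange points H3K4me1, and black bars medians. H3K27ac medians lie between -204 and -137 bp, and H3K4me1 medians between 242 and 786 bp, with few H3K4me1 summits close to a start.

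The divergent pair Hist1h2ah (H2A) and Hist1h2bk (H2B) of block 2 was missing from the wild-type H3K27ac list alone. Gained means that a gene had a promoter peak in the mutant list and none in the reference, and lost means the opposite, so either word says only in which list a peak passed the authors' threshold. Each mutant list thus gained 2 genes against wild type, 3.7% of the cluster, where a peak was gained at 5.18% of all genes in Flt3-ITD, 7.11% with NUP98-HOXD13, 3.39% in Runx1-het, 7.3% in the fusion double mutant and 7.77% in the Runx1 double mutant. The 5 comparisons share the wild-type list, so a peak missing there counts as a gain in all of them. The fold enrichment over this pair was 6.1 in Flt3-ITD, 6.15 with NUP98-HOXD13, 4.79 in Runx1-het, 6.78 in the fusion double mutant and 7.09 in the Runx1 double mutant. This peak, the strongest by fold enrichment, was a weak one for these lists, between the 12.9th and the 31.7th percentile of all marked genes, and 353 to 460 bp wide. Every mutant list but Runx1-het held further H3K27ac peaks within 1 kb of these starts. Flt3-ITD and the fusion double mutant had a wider one (1057 and 661 bp) with a higher −log10 q (15.9 against 10.8, and 21 against 12.8). The further peaks of NUP98-HOXD13 and the Runx1 double mutant had a lower −log10 q than the strongest. The wild-type lists held no H3K27ac and no H3K4me1 peak anywhere within 1 kb of either start. The other divergent pair of block 2, Hist1h2ag and Hist1h2bj, was in every list, with a fold enrichment of 12 in wild type and between 7.79 and 13.4 elsewhere.

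Losses were few. Hist1h4b, an H4 gene, was missing from the NUP98-HOXD13 list, the only H3K27ac loss among the 54 genes in that comparison (1.85%, against 1.3% of all genes). No Hist1h gene lost its H3K27ac promoter peak in the other 4 mutants, where 1.58% (Flt3-ITD), 3.38% (Runx1-het), 1.15% (the fusion double mutant) and 1.01% (the Runx1 double mutant) of all genes did. At Hist1h4b the fold enrichment was 5.99 in wild type, 5.49 in Flt3-ITD, 3.14 in Runx1-het, 5.14 in the fusion double mutant and 5.66 in the Runx1 double mutant, the lowest of any marked Hist1h gene in those lists. Its summit stood at -153 bp from the start in wild type but at 783 to 1005 bp in the other 4. With the fusion double mutant set against NUP98-HOXD13, Hist1h4b was the only gain (1.85%, background 1.79%), and no gene was lost (background 1.44%). When the Runx1 double mutant was set against Runx1-het, no Hist1h gene was gained or lost (backgrounds 7.4% and 0.655%).

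A count of promoter peaks can miss a difference within a promoter range. At the divergent pair Hist1h2an and Hist1h2bp, both counted as marked in every list, the wild-type list had a single H3K27ac peak of 447 bp at chr13:21787896-21788342 with a fold enrichment of 6.98. Each of the 5 mutant lists had 2 or 3 peaks there, including 1 with its summit between 21786661 and 21786714 and 1 with its summit between 21787339 and 21787381. Flt3-ITD and the fusion double mutant also had a peak overlapping the wild-type one (chr13:21787884-21788198 and chr13:21787945-21788343). Its fold enrichment was 4.56 and 3.34. NUP98-HOXD13, Runx1-het and the Runx1 double mutant had no peak overlapping it. The peak with the first of these summits had 13 in Flt3-ITD, 8.8 with NUP98-HOXD13, 6.7 in Runx1-het, 8.48 in the fusion double mutant and 6.91 in the Runx1 double mutant. The wild-type list held the most H3K27ac peaks of the mark (43363, against 31978 to 42677), and these files do not give the read depth.

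Of the 10 genes without an H3K27ac promoter peak in any list, 6 formed a continuous stretch of 30.9 kb at the end of block 1 (chr13:21806612-21837530): Hist1h2bq, Hist1h2ao, Hist1h4m, Hist1h4n, Hist1h2ap and Hist1h2br. No list held an H3K27ac peak anywhere in this stretch. H3K4me1 peaks in it were single and lay away from the starts, 1 each in wild type, Runx1-het and the double mutants, with fold enrichments of 2.38 to 5.02. These genes also stood apart by sequence. Of the 75-base words of their RefSeq promoter windows, 70.4 to 100% occurred in another promoter as well, while the share was 0 for the other 45 windows. The Hist1h2bq and Hist1h2br windows were identical over all 300 bases, and those of Hist1h2ao and Hist1h2ap over the 200 bases that aligned. Reads from such copies cannot be placed at 1 of them with certainty, and no source used here says how the authors treated them, so unmarked promoters and unplaced reads cannot be told apart for these 6 genes. Hist1h4j and Hist1h4k, whose windows were 95.8% identical but shared no 75-base word (21.9% of 36-base words), were in all 6 lists, with 8.13 to 12.3 at Hist1h4j and 6.53 to 11.9 at Hist1h4k.

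**Figure D4:**
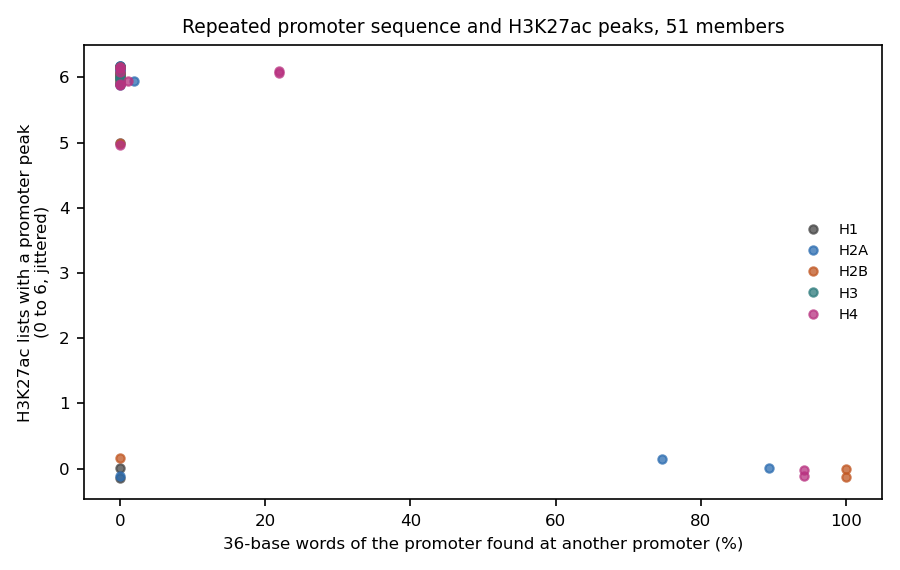
Share of the 36-base words of each promoter window found at another promoter (%, horizontal axis) against the number of H3K27ac lists with a promoter peak (vertical axis, jittered) for 51 Hist1h genes, coloured by class. The 6 genes of the unmarked stretch lie at 74.7 to 100% and 0 lists, Hist1h4j and Hist1h4k at 21.9% and 6 lists, and the other unmarked genes at 0%.

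The promoter windows of the other 4 unmarked genes shared no such words. Hist1h2ba and Hist1h2aa, the divergent pair of block 4 known as testis histone genes, had no promoter peak of either mark in any list, and the nearest H3K27ac peak lay 17351 bp or more from either start. Hist1h1t, the testis H1 gene, had no H3K27ac promoter peak but an H3K4me1 promoter peak in 5 lists, with fold enrichments of 4.76 in wild type, 4.71 in Flt3-ITD, 5.65 in Runx1-het, 3.36 in the fusion double mutant and 4.78 in the Runx1 double mutant. The summits of these peaks lay 762 to 1794 bp downstream of its start. The wild-type and Runx1-het peaks were shared with the H4 gene Hist1h4c, whose start was the nearest to the wild-type summit. The H3K27ac call of Hist1h1t depended on the range: the nearest H3K27ac peak lay 1140 (Flt3-ITD) to 1799 bp (the Runx1 double mutant) from its start, so that within 2 kb every list marked it. In Flt3-ITD, NUP98-HOXD13, Runx1-het and the fusion double mutant this nearest peak was the strongest promoter peak of Hist1h4c. Hist1h1d, a somatic H1 gene, was unmarked only by the choice of start. Its GENCODE start lies 1770 bp upstream of its RefSeq start at 23555032, and within 1 kb of the RefSeq start every list had an H3K27ac peak. The strongest there had 5.11 in wild type, 11.1 in Flt3-ITD, 11.5 with NUP98-HOXD13, 8.29 in Runx1-het, 10.5 in the fusion double mutant and 5.15 in the Runx1 double mutant. Hist1h2ba and Hist1h2aa are thus the unmarked genes whose call neither the range, the choice of start nor repeated sequence in the promoter window touches. Their transcripts, which also lie within 1 kb of the starts, were less distinct. Of the 36-base words, 41.8% (Hist1h2ba) and 8.17% (Hist1h2aa) occurred in another Hist1h gene, and of the 75-base words 33.2 and 0%. The part of these words in the missing peaks was not tested.

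H3K4me1 varied between the lists far more than H3K27ac. Its promoter peaks stood at 30 of the 54 genes in wild type (55.6%, against 20.8% of all genes), 42 in Flt3-ITD (77.8% against 27.9%) and 24 with NUP98-HOXD13 (44.4% against 28.7%). They stood at 34 in Runx1-het (63% against 20.7%), 39 in the fusion double mutant (72.2% against 30.3%) and 21 in the Runx1 double mutant (38.9% against 30.1%). Of the 54, 13 genes (24.1%, against 6.83% of all genes) were in all 6 lists and 9 (16.7%, against 50.5%) in none. The peaks were modest, with a median fold enrichment of 3.96 to 5.33. The summits were farther from the starts than those of H3K27ac, at a median of 777 to 889 bp, close to the 750 to 866 bp over all H3K4me1 promoter peaks.

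The classes differed in this mark. H4 genes kept to 8 or 9 of 11 in every list, and 7 of the 11 were in all 6: Hist1h4j, Hist1h4k, Hist1h4i, Hist1h4f, Hist1h4d, Hist1h4c and Hist1h4b. H3 genes ranged from 2 of 9 (NUP98-HOXD13 and the Runx1 double mutant) to 8 of 9 (Flt3-ITD), and none was in all 6 lists. H1 genes ranged from 1 of 6 to 5 of 6, H2A from 4 to 10 of 13 and H2B from 6 to 12 of 15. The H4 gene Hist1h4i had H3K4me1 promoter peaks with fold enrichments of 7.8 in wild type, 8.04 in Flt3-ITD, 4.76 with NUP98-HOXD13, 9.35 in Runx1-het, 5.4 in the fusion double mutant and 5.18 in the Runx1 double mutant. These were the highest of the cluster in wild type, Flt3-ITD and Runx1-het. Hist1h1e, by contrast, had no H3K4me1 promoter peak in any list while its H3K27ac peak was in all 6.

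Against wild type, 14 Hist1h genes gained and 2 lost an H3K4me1 promoter peak in Flt3-ITD (25.9 and 3.7%, against 12.6 and 5.49% of all genes). The gains included Hist1h4h, Hist1h2bh, Hist1h3f and the pairs Hist1h2ah with Hist1h2bk and Hist1h2ac with Hist1h2bc, and the losses were Hist1h1d and Hist1h1c. The loss at Hist1h1d depended on the GENCODE start. Within 1 kb of its RefSeq start both wild type (2.63) and Flt3-ITD (4.62) had an H3K4me1 peak. In Runx1-het, 8 gained and 4 lost one (14.8 and 7.41%, against 8.22 and 8.26%). In the fusion double mutant, 11 gained and 2 lost one (20.4 and 3.7%, against 14.6 and 5.02%). The 2 remaining lists leaned the other way from all genes: in NUP98-HOXD13, 6 gained and 12 lost one (11.1 and 22.2%, against 14.7 and 6.71%), and in the Runx1 double mutant, 4 gained and 13 lost one (7.41 and 24.1%, against 16.3 and 6.95%). The losses in NUP98-HOXD13 included Hist1h2bm, Hist1h2ae and Hist1h3d, and those in the Runx1 double mutant Hist1h2ab, Hist1h3b and Hist1h4a. These 5 comparisons share the wild-type list.

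The lists with Flt3-ITD added leaned opposite ways in the 2 backgrounds, which share no list. Against NUP98-HOXD13, the fusion double mutant gained an H3K4me1 promoter peak at 15 Hist1h genes and lost none (27.8 and 0%, against 9.46 and 7.85% of all genes). Against Runx1-het, the Runx1 double mutant gained 3 and lost 16 (5.56 and 29.6%), although over all genes gains (16.2%) exceeded losses (6.89%). The gains of the first and the losses of the second had 8 genes in common (53.3% of the gains and 50% of the losses): Hist1h1b, Hist1h3i, Hist1h2bh, Hist1h1d, Hist1h2bf, Hist1h2ad, Hist1h1c and Hist1h3c. Over all genes the same overlap took in 339 genes, 16.4% of the gains and 22.5% of the losses. The strongest peaks of the 8 genes were 8 distinct peaks in the fusion double mutant and 6 in Runx1-het, where neighbours shared peaks. Hist1h2bf, for example, had 5.94 in Runx1-het and 4.45 in the fusion double mutant but no peak in NUP98-HOXD13 or the Runx1 double mutant. The difference between the backgrounds was not tested.

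**Figure D5:**
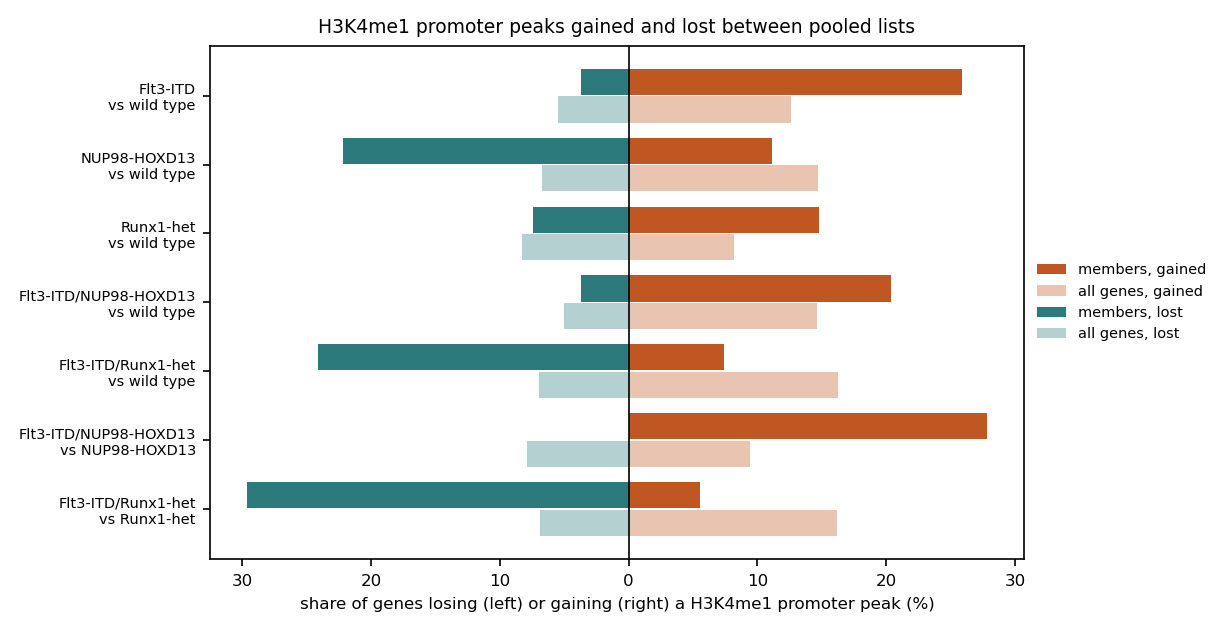
Share of genes (%, horizontal axis) that lost (left, green) or gained (right, orange) an H3K4me1 promoter peak in 7 comparisons of pooled lists (vertical axis); dark bars are the 54 Hist1h genes and pale bars all 21827 protein-coding genes. The cluster's gains reach 27.8% in the fusion double mutant against NUP98-HOXD13 and its losses 29.6% in the Runx1 double mutant against Runx1-het.

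The lists with few marked Hist1h genes also had narrow and low-ranking H3K4me1 peaks there. The median width of the cluster's strongest H3K4me1 promoter peaks was 320 bp in NUP98-HOXD13 and 290 bp in the Runx1 double mutant, against 604 to 739 bp in the other 4 lists. Over all genes the same medians were 374 and 319 bp, against 420 to 503 bp. The cluster's median percentile of fold enrichment was 38.1 and 38.9 in those lists and 62 to 68.7 in the others. They were not short lists: NUP98-HOXD13 held 95249 H3K4me1 peaks and the Runx1 double mutant 117039, against 72682 to 95907. With peaks of −log10 q of at least 5 only, H3K4me1 promoter peaks were left at 16 Hist1h genes in wild type (29.6%, against 8.31% of all genes), 20 in Flt3-ITD (37% against 9.02%) and 0 with NUP98-HOXD13 (0% against 2.56%). They were left at 21 in Runx1-het (38.9% against 8.32%), 16 in the fusion double mutant (29.6% against 8.5%) and 4 in the Runx1 double mutant (7.41% against 6.23%). The share over all genes was thus lowest in these same 2 lists as well. The part of peak width and rank in these counts was not tested.

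With 42 to 44 acetylated Hist1h genes in every list, the share of them that also carried H3K4me1 ranged widely. It was 66.7% in wild type (40.4% of all acetylated genes), 93.2% in Flt3-ITD (52%) and 53.5% in NUP98-HOXD13 (50.3%). It was 72.7% in Runx1-het (41.2%), 84.1% in the fusion double mutant (55.9%) and 45.5% in the Runx1 double mutant (50.2%). In the Runx1 double mutant alone the cluster lay below all genes. In all 12 lists of both marks stood 12 genes: Hist1h4j, Hist1h4k, Hist1h2bn, Hist1h4i, Hist1h2ag, Hist1h2bj, Hist1h2af, Hist1h4f, Hist1h4d, Hist1h2be, Hist1h4c and Hist1h2bb. The same count was not made over all genes, so whether it is a high one is not known.

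Between the histone genes lie 48 other protein-coding genes, of which 5 to 7 per list had an H3K27ac promoter peak, against 39.4 to 46.2% of all genes. In no list were 40 of the 48 (83.3%, against 50.5% of all genes). The vomeronasal receptor genes (Vmn1r, 35 of the 48), which serve pheromone sensing, had none. Of the others, 2 of 4 Slc17a, 2 of 2 Zfp, 0 of 2 Btn and 4 of 5 further genes had one in at least 1 list. Abt1, Hfe, Zfp184 and Zfp322a were in all 6 lists. H3K27ac promoter peaks of this region were thus mostly those of the histone genes.

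Genes that work with the cluster were read beside the 39.4 to 46.2% of all genes that had an H3K27ac promoter peak per list and the 35.2% that were in all 6. Of 19 genes of the histone locus body and histone mRNA processing, 15 to 18 had one per list (78.9 to 94.7%) and 15 were in all 6. Npat, the coactivator of histone transcription, had 10.2 in wild type, 16.7 in Flt3-ITD, 13.9 with NUP98-HOXD13, 13.9 in Runx1-het, 18.9 in the fusion double mutant and 12.7 in the Runx1 double mutant. Slbp, which binds the stem-loop of histone mRNAs, had 8.59 to 14.8, and Casp8ap2, a locus body protein, 6.88 to 18.1. Gon4l was in no list, Lsm11 (a subunit of the U7 particle that cuts histone mRNAs) in 2, Coil (coilin) in 3, and Sympk was missing from wild type.

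Of 13 genes of the smaller histone clusters, 10 were marked in wild type (76.9%) and 12 in each mutant (92.3%). Hist2h2aa2 and Hist2h3c1 were missing from wild type alone, with 4.61 to 7.38 and 4.95 to 9.2 in the mutants, and Hist3h2ba was in no list. Replication-independent variants were marked at 9 or 10 of 11 genes (81.8 or 90.9%), with H2afy2 and H1fx in 1 list each. Histone chaperones were marked at 10 or 11 of 12 (83.3 or 91.7%), with Ipo4 in no list, Chaf1b missing from wild type and Asf1b from Runx1-het. Of 20 DNA replication genes, 14 in wild type, 17 in Flt3-ITD, 18 with NUP98-HOXD13, 15 in Runx1-het, 17 in the fusion double mutant and 18 in the Runx1 double mutant were marked (70 to 90%). These lists are short, and their shares were not tested against all genes. Rrm2 and Tk1, which supply deoxynucleotides, were in 1 list each, Tyms in 2 and Lig1, a DNA ligase, in 3.

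The labelled cell type was checked by H3K27ac promoter peaks at marker genes. Such peaks stood at 8 to 10 of 10 stem and progenitor markers, 1 to 3 of 7 granulocyte, 1 of 5 monocyte and macrophage, 0 or 1 of 5 B cell, 0 of 5 T and NK cell and 0 of 6 non-blood markers. S100a8, Csf1r, Pax5, Cd3e and Alb were in no list. Of erythroid genes, the beta-globin gene Hbb-bt had an H3K27ac promoter peak in all 6 lists, with fold enrichments of 4.9 to 7.89, and an H3K4me1 promoter peak in all 6. Klf1, an erythroid transcription factor gene, had an H3K27ac promoter peak in the Runx1 double mutant alone (3.17). The part of erythroid cells in the cluster's peaks was not tested.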

How the data were processed

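H3K27ac and H3K4me1 were measured in 39 samples of 6 genotypes, grouped by the sample labels; 1 input sample was not analysed here. BWA was used for alignment to mm10 (GRCm38) and MACS2 for peak calling, per the submitters' processing notes. No source used here gives their versions, the thresholds or the handling of reads that map to several places. The 12 deposited lists, 1 per group and pooled over its samples, give per peak a score, a ratio (the authors' fold enrichment over control), the authors' −log10 p and −log10 q, and the summit position. The deposited score was not used. Depth is unknown from the deposited files, so no depth-based interval is given.

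Start sites (41433) came from protein-coding transcripts of the GENCODE M21 basic set on chromosomes 1 to 19, X and Y. A gene was marked where a peak overlapped the range within 1 kb of a start by at least 1 bp, and its strongest peak by fold enrichment represented it. Gained and lost genes were counted over all 21827 genes for 7 comparisons. With 1 pooled list per group no test was possible and no p-value was computed. The counting was tested on simulated data: 200 planted and 200 removed promoter peaks were recovered. Alternatives were a 2 kb range, lists of equal length (31978 and 72682 strongest peaks by −log10 p), −log10 q of at least 5, the summit within range and an overlap of at least 200 bp. RefSeq starts, and the H3K4me1 gains and losses under all 6 alternatives, were added after the data were seen. Python 3.11.15, pandas 2.3.3, numpy 2.4.6, scipy 1.17.1 and matplotlib 3.10.9 were used.

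Genes were named by rule: per class the 2 with the highest median H3K27ac fold enrichment over the lists, those held by some lists only, the first 8 by position held by none, the testis genes Hist1h1t, Hist1h2aa and Hist1h2ba, and up to 4 genes of each other list held by the fewest lists. Other genes named were chosen after their values were seen. One marker gene, and the count of its list, are not reported here. The members and gene lists were chosen with earlier results of these data known.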

Additional observations from a re-analysis of the deposited data

How the results depend on the processing

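Of 252 counts recomputed under 6 alternatives, 202 stayed within 1.5 times the reported count and 50 did not. The H3K27ac counts per list ranged from 40 to 46 and never moved that far, the count held by all 6 lists ranged from 35 to 43, and Hist1h2ah and Hist1h2bk were the gain over wild type in all 5 mutants under all 6 alternatives. With the summit required in range, H3K27ac losses against wild type became 2 (Flt3-ITD), 4 (NUP98-HOXD13), 4 (Runx1-het), 3 (the fusion double mutant) and 2 (the Runx1 double mutant), gains and losses within the NUP98-HOXD13 background 2 and 1, and within the Runx1-het background 3 and 1. At a −log10 q of at least 5, the Runx1-het list lost 1 gene, and 1 was gained within its background. For H3K4me1 at that threshold, 16 (wild type), 20 (Flt3-ITD), 0 (NUP98-HOXD13), 21 (Runx1-het), 16 (the fusion double mutant) and 4 (the Runx1 double mutant) genes were marked and 0 in all 6 lists. Gains over wild type were then 7 in Flt3-ITD and 0 in NUP98-HOXD13 and in the Runx1 double mutant, losses 8 in the fusion double mutant, and gains within the Runx1-het background 0. Within 2 kb, 28 genes were in all 6 lists and 33 in the Runx1 double mutant; gains were 8 in Flt3-ITD, 9 within the NUP98-HOXD13 and 1 within the Runx1-het background, and losses against wild type 0 in Flt3-ITD, 0 in Runx1-het, 1 in the fusion double mutant and 8 in the Runx1 double mutant. With lists of equal length, gains over wild type were 3 in NUP98-HOXD13 and 2 in the Runx1 double mutant, gains within the Runx1-het background 0, losses 4 in Flt3-ITD, 6 in the fusion double mutant and 1 within the NUP98-HOXD13 background. With the H3K4me1 summit in range, 19 genes were marked in wild type and 3 in all 6 lists; gains were 10 in NUP98-HOXD13, 7 in the Runx1 double mutant and 6 within the Runx1-het background, and losses 3 within the NUP98-HOXD13 background. With an overlap of at least 200 bp, 15 genes were marked in NUP98-HOXD13 and 6 in all 6 lists; NUP98-HOXD13 gained 3, the fusion double mutant lost 4 and, within the NUP98-HOXD13 background, 2. With RefSeq starts, Flt3-ITD lost 1, and Hist1h1d was no longer a loss. Under these 6 alternatives H3K4me1 gains within the NUP98-HOXD13 background (9 to 21) exceeded losses (0 to 3), and losses within the Runx1-het background (13 to 20) exceeded gains (0 to 6). At a −log10 q of at least 5 both directions followed from the totals. No gene was then marked in NUP98-HOXD13, so none could be lost. Runx1-het had 21 marked genes and the Runx1 double mutant 4, so losses had to exceed gains. Gains and losses under the alternatives were counted for the Hist1h genes only, with no share over all genes beside them. The causes of these shifts were not tested. Pooled lists hide the spread between animals, the peak threshold is unknown, and the authors' deposited lists hold peaks with a −log10 q as low as 0.66, so weak H3K4me1 peaks limit those counts. No paired analysis was possible because each group has 1 pooled list with no value per sample.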

Other observations

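The genes with the strongest H3K27ac were not those with the steadiest H3K4me1. Of the 19 genes in every H3K27ac list with a median fold enrichment of at least 20, 3 were in all 6 H3K4me1 lists, and the median number of H3K4me1 lists was 3. Of the 22 with a lower median, 9 were in all 6, and the median number was 5. Some of these values come from a neighbour's peak: Hist1h2af, Hist1h1a and Hist1h1e pass the limit through peaks whose summits lie beyond 1 kb from their starts. Hist1h1b and Hist1h1c also had summits more than 1 kb downstream of their own starts in some lists, wild type and NUP98-HOXD13 among them. With only peaks whose summit lay within 1 kb of the gene's own start, an alternative added after the values were seen, 35 genes were in every H3K27ac list. Of the 13 with a median of at least 20, 2 were in all 6 H3K4me1 lists (median 3 lists), and of the other 22, 9 were (median 5). The limit of 20 was chosen after the values were seen, genes under 1 peak share a value, and the relation was not tested. Hist1h3f, Hist1h2ac and Hist1h2bc were each held by 1 H3K4me1 list, Flt3-ITD, and Hist1h1e by none.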
